A study of Homo sapiens with 18 samples.

Results

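Leukocytes leave the blood and settle in tissue through a small set of surface proteins, and 6 genes of that set are described here: 3 integrin subunits (ITGAL, ITGAM and ITGB2), the selectin ligand SELPLG and the chemokine receptors CXCR4 and CCR2. They were taken by symbol from a table of 5069 distinct sets of TPM values (an abundance scaled by transcript length and by library total), 2309 of which could be tied to 1 gene symbol, and all 6 had such a set. The study measured RNA in 2 established human lines of acute myeloid leukaemia. OCI-AML3 carries the NPM1c+ genotype, a mutation of nucleophosmin that moves the protein into the cytoplasm, and OCI-AML2 carries NPM1WT. In each line, clone 1 and clone 2, labelled caspase-2 KO after CRISPR/Cas9, are set against the parental cells labelled caspase-2 WT, which makes 6 groups of 3 libraries. All cells were untreated and grown in RPMI with serum. Each clone group is 1 clone grown from edited cells, and no label says that its libraries came from separate cultures, so p-values measure only the spread between these libraries.

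The steps these genes serve are well known in blood cells. P-selectin glycoprotein ligand 1, the SELPLG product, lets a leukocyte roll on selectins of the vessel wall, chemokines then signal through receptors such as CXCR4 and CCR2, and this switches beta-2 integrins into a form that holds the cell fast. Each beta-2 integrin is a pair of the shared beta chain from ITGB2 and 1 alpha chain, the ITGAL chain in LFA-1 and the ITGAM chain in Mac-1. In the bone marrow, CXCL12 made by stromal cells retains stem cells and leukaemia cells through CXCR4, while CCR2, the receptor for CCL2, brings monocytes out of the marrow and into inflamed tissue.

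The table holds selected genes. Of its distinct sets, 96.6% reached an absolute log2 ratio of mean TPM of 0.95 in 1 or more of 3 comparisons, namely between parental lines, for OCI-AML3 clones 1 and 2 alike against their parental cells, or for OCI-AML2 clone 1. ITGB2 met 1 of these 3 conditions and each of the other 5 genes met 2, so their calls cannot be read as a rate over the transcriptome. The values given for ITGAL also stood, in another replicate order of OCI-AML3 clone 1, under PECAM1, and those of SELPLG under PDLIM4. By the replicate order they belong to ITGAL and SELPLG. ITGAM, ITGB2 and CASP2 stand on 1 line each, and their symbols were accepted because the parental lines differ little in them. A further line under ITGAL (0 to 0.34 TPM), SELPLG (0 to 198.67 TPM), CXCR4 (0 to 6.91 TPM) and CCR2 (5.3 to 20.36 TPM) held other values that could not be tied to a gene and was not used. In OCI-AML3, the unused CCR2 line had 5.3 to 6.87 TPM in clones against 7.91 to 8.62 TPM in parental cells. The unused CXCR4 line had 3.94 to 4.44 TPM against 5.45 to 6.91 TPM. Both ran lower in the clones, opposite to the lines used. In OCI-AML2, the unused SELPLG line had 112.1 to 198.67 TPM in clones against 74.89 to 90.44 TPM in parental cells. There the used line did not rise. That unused line was also higher in clone 2 (141.12 to 198.67 TPM) than in clone 1 (112.1 to 133.38 TPM), opposite to the used one. The unused CCR2 line had 10.57 to 14.83 TPM in OCI-AML2 clone 1 and 16.06 to 20.36 TPM in clone 2. Its OCI-AML2 parental cells had 17.61 to 20.12 TPM. Clone 1 ran lower, as in the used CCR2 line, but clone 2 overlapped the parental range, where the used line was higher. In OCI-AML3, the means of the unused ITGAL and SELPLG lines moved as in the used ones. Read depth is unknown, because TPM keeps no record of it.

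CASP2, the targeted gene, stood at 3 to 5.06 TPM in the 6 OCI-AML2 clone libraries, against 35.32 to 37.29 TPM in OCI-AML2 parental cells. It stood at 26.34 to 35.39 TPM in the 6 OCI-AML3 clone libraries, against 28 to 30.11 TPM in OCI-AML3 parental cells, where neither clone passed (limma, adjusted p = 0.537 and 0.240). These mRNA levels do not check the OCI-AML3 labels, and the protein was not analysed here. Of 11 monocyte markers 5 had a settled symbol (CD14, FCGR1A, CD68, CD36 and CD86). Their summed level was 299.4 to 359.3 TPM in OCI-AML3 clones against 867.7 to 1009 TPM in OCI-AML3 parental cells. In OCI-AML2 it was 659.3 to 918.2 TPM in clone 1 and 579.7 to 670.9 TPM in clone 2, against 825.8 to 871.9 TPM in parental cells. A sum follows its most abundant genes, and not every monocyte marker fell with it. In OCI-AML3, 1 of the 5 was under 1 TPM in every parental library, against 0 in either clone. In OCI-AML2 this count was 1 in parental cells, 1 in clone 1 and 0 in clone 2. Of 14 granulocyte markers 6 had a settled symbol (AZU1, PRTN3, CTSG, S100A8, S100A9 and MMP9). They summed to 3780 to 5143 TPM in OCI-AML3 clones against 13460 to 15200 TPM in parental cells. In OCI-AML2 they summed to 12720 to 14670 TPM in clone 1 and 5769 to 6249 TPM in clone 2, against 4542 to 5108 TPM in parental cells. Of the T cell, B cell, megakaryocyte and stromal lists 1 gene each had a settled symbol. The stromal marker COL1A2 had 1.83 to 3.91 TPM in OCI-AML3 clones against 0.06 to 0.25 TPM in OCI-AML3 parental cells, and 0 to 0.02 TPM in OCI-AML2. The T cell marker CD3D had 0.98 to 1.74 TPM in OCI-AML2 clones and was listed at 0 elsewhere. The B cell marker PAX5 had 3.82 to 4.2 TPM in OCI-AML2 clone 1 and 1.91 to 2.11 TPM in clone 2 against 1.72 to 1.77 TPM in OCI-AML2 parental cells, and at most 0.52 TPM in OCI-AML3. The megakaryocyte marker ITGA2B had 0.19 to 0.69 TPM in OCI-AML3 clones against 2.57 to 2.98 TPM in parental cells. None of 8 erythroid markers had a settled symbol. These marker levels moved with the groups compared below, and their part in the results was not tested. In bulk RNA, fewer cells of a type and less RNA per cell cannot be told apart.

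The RefSeq promoter table (GRCh38.p14) matched 3 of the 6 genes. These are CXCR4, CCR2 and ITGAM, and their 250 bases before the transcript start are shown, read in the direction of transcription. They lie at chr2:136118150-136118399 (minus strand, the farthest upstream of 3 starts), chr3:46353861-46354110 (plus strand) and chr16:31259725-31259974 (plus strand). Capitals mark matches on either strand to 3 short motifs. The ETS core, bound by factors such as PU.1, was searched as GAGGAA. The GC box, bound by Sp factors, was searched as GGGCGG. The TATA box of core promoters was searched as TATAAA.
CXCR4: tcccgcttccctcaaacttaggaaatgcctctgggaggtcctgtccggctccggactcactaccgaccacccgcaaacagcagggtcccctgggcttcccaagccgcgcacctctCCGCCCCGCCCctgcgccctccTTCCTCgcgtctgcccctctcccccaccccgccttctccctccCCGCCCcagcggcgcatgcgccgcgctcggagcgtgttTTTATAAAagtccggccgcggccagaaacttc
CCR2: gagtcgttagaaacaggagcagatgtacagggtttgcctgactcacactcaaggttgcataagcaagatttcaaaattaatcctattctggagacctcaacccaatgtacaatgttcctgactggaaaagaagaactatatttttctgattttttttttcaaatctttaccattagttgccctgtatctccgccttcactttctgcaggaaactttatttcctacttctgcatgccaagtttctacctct
ITGAM: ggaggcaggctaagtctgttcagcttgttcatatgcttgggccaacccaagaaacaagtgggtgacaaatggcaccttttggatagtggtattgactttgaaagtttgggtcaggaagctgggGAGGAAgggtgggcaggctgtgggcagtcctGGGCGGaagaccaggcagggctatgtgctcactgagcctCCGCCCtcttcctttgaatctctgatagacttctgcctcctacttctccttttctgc
The CXCR4 window held 1 ETS core, 3 GC boxes and 2 overlapping TATA boxes, and 2 of its GC boxes overlap as well. The TATA boxes began at positions -32 and -30, counted back from the transcript start. The ITGAM window held 1 ETS core at -127 and 2 GC boxes, and the CCR2 window held none of the 3. Among 35116 windows of this length in the table, 23.6% held an ETS core, 42.6% a GC box and 10.7% a TATA box. A match describes these letters only.

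In the OCI-AML3 clones labelled caspase-2 KO, the integrin genes ITGAL and ITGB2 and the chemokine receptor genes CXCR4 and CCR2 rose, the selectin ligand gene SELPLG fell, and ITGAM fell at levels under 1 TPM. In OCI-AML2 clones ITGB2 fell and ITGAM rose in both clones, and the other 4 genes passed in 1 clone, in opposite directions or in neither. All 6 genes passed in both OCI-AML3 clones in 1 direction, 4 higher and 2 lower. Of all 4413 sets tested, 67.1% passed in both OCI-AML3 clones, 28.7% higher and 38.3% lower, so a pass is common in this table. In OCI-AML2, 2 of the 6 passed in both clones in 1 direction, 1 higher and 1 lower, against 38.4% of all sets, 23.8% higher and 14.6% lower. For single clones, 72.2% and 73.1% of all sets passed in OCI-AML3 clones 1 and 2 and 56.0% and 65.7% in OCI-AML2 clones 1 and 2. ITGAM was above 1 TPM only in the OCI-AML2 clones and was tested only through them. Its OCI-AML2 call and its difference between lines are therefore descriptions. The median log2 change of the 6 genes, as a mean of both clones, was 1.43 in OCI-AML3, where the median of all sets was -0.06, and -0.15 in OCI-AML2, where it was 0.06. This median pools genes that rose and genes that fell. The genes were chosen with earlier results of these data known, so no shift of the group is read from it.

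**Figure D1:**
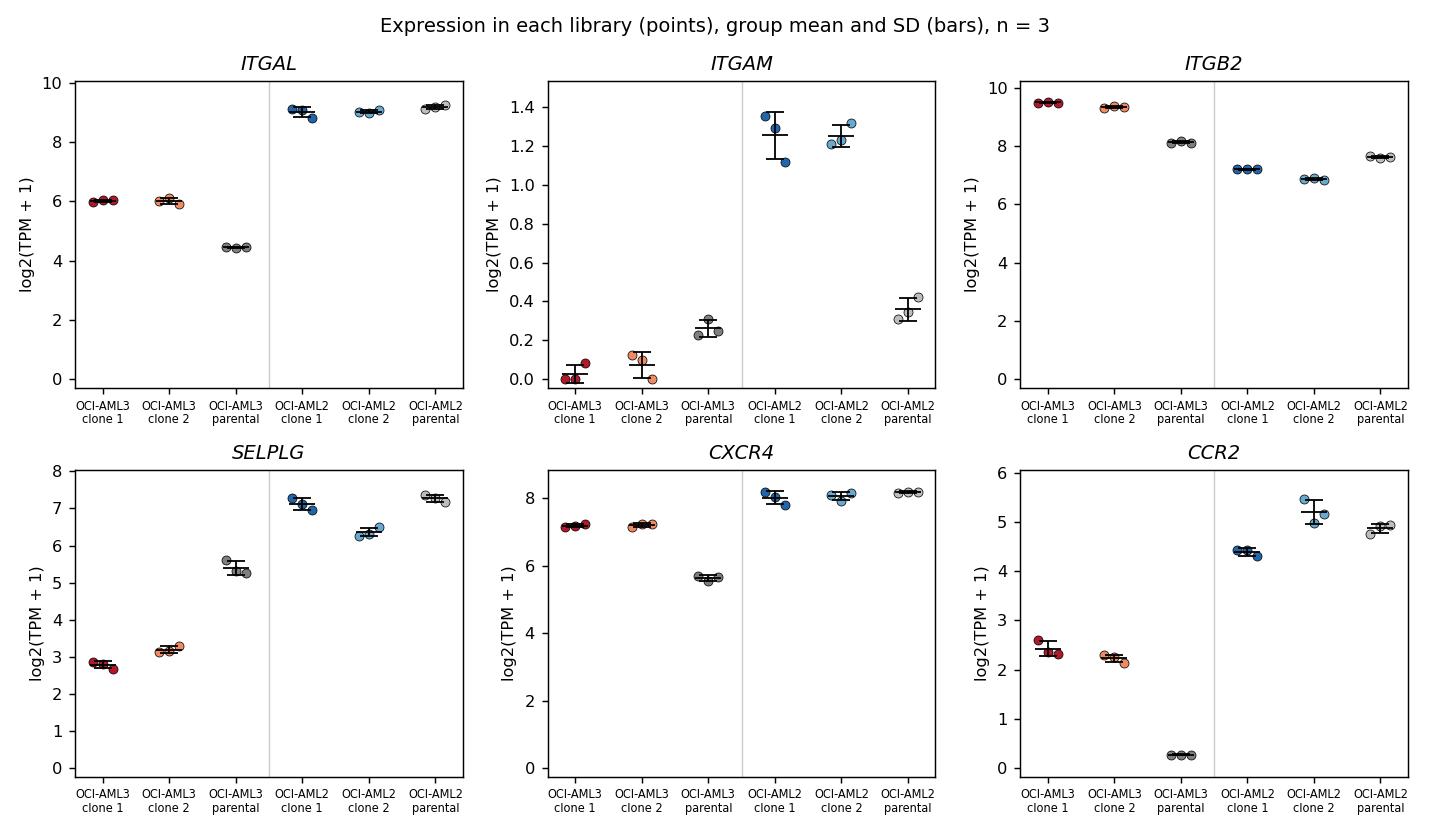
Expression of the 6 genes in 18 libraries, as log2(TPM + 1) on the vertical axis and the 6 groups on the horizontal axis. Points are libraries and bars the group mean and SD (n = 3); ITGAL, CXCR4 and CCR2 sit lowest in OCI-AML3 parental cells, and ITGB2 is highest in the OCI-AML3 clones, at 627.58 to 733.68 TPM.

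ITGAL encodes the alpha chain of LFA-1, the integrin that binds ICAM proteins on vessel walls and on other leukocytes. It had 61.94, 65.76 and 64.50 TPM in OCI-AML3 clone 1 and 63.89, 68.30 and 59.51 TPM in clone 2, against 21.08, 20.60 and 20.91 TPM in OCI-AML3 parental cells. Every clone library lay above every parental library, and the clones overlapped each other. ITGAL rose 3.07-fold in clone 1 (a log2(TPM + 1) change of 1.57 with an SE of 0.08, adjusted p = 2.86e-12) and 3.06-fold in OCI-AML3 clone 2 (1.57, adjusted p = 2.96e-12). In OCI-AML2 it had 558.36, 545.07 and 446.58 TPM in clone 1 and 520.38, 501.78 and 537.06 TPM in clone 2, against 549.47, 577.22 and 608.24 TPM in parental cells. Here the clones were at 0.893 and 0.899 of the parental mean, and clone 1 overlapped the parental range. The OCI-AML2 log2 changes were -0.17 in clone 1 (95% interval -0.33 to -0.006, adjusted p = 0.0738) and -0.15 in clone 2 (-0.32 to 0.009, adjusted p = 0.0908). After rescaling by medians of ratios both passed as lower, at -0.29 (adjusted p = 0.000559) and -0.18 (adjusted p = 0.0141). Clone 1 also passed without its replicate 1 (adjusted p = 0.0277) or 2 (adjusted p = 0.0494), and clone 2 without clone 1 replicate 3 (adjusted p = 0.029).

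ITGB2 encodes the beta-2 chain, without which no beta-2 integrin reaches the cell surface. It had 721.20, 733.68 and 716.85 TPM in OCI-AML3 clone 1 and 627.58, 662.16 and 650.00 TPM in clone 2, against 276.03, 287.49 and 275.14 TPM in OCI-AML3 parental cells. ITGB2 rose 2.59-fold in clone 1 (1.37 on the log2 scale, SE 0.05, adjusted p = 5.08e-14) and 2.31-fold in clone 2 (1.21, adjusted p = 2.83e-13), with no overlap between clone and parental libraries. Levels in OCI-AML2 were 149.27, 146.51 and 146.26 TPM in clone 1 and 116.18, 118.89 and 113.55 TPM in clone 2, against 203.13, 191.68 and 195.62 TPM in parental cells. It fell there to 74.9% of the parental mean in clone 1 (-0.41 on the log2 scale, SE 0.05, adjusted p = 1.17e-06), and clone 2 reached 59.1% (-0.76, adjusted p = 3.09e-10). The direction was therefore opposite in the 2 lines, and again no clone library overlapped the parental range.

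ITGAM encodes the alpha chain of Mac-1, also called complement receptor 3, a marker of mature granulocytes and monocytes that binds complement fragments and fibrinogen. It was the lowest of the 6 genes. It had 0, 0 and 0.06 TPM in OCI-AML3 clone 1 and 0.09, 0.07 and 0 TPM in clone 2, against 0.17, 0.24 and 0.19 TPM in OCI-AML3 parental cells. On the log2(TPM + 1) scale this was a change of -0.23 in clone 1 (SE 0.07, adjusted p = 0.00452), and clone 2 was at -0.19 (adjusted p = 0.0179). The second of these calls ended without OCI-AML3 parental replicate 2 (adjusted p = 0.0775) or clone 2 replicate 3 (adjusted p = 0.0789; range over all settings 0.000862 to 0.0789). Its OCI-AML2 levels were 1.55, 1.45 and 1.17 TPM in clone 1 and 1.31, 1.34 and 1.49 TPM in clone 2, against 0.24, 0.27 and 0.34 TPM in parental cells. ITGAM rose there 4.91-fold in clone 1 (0.89 on the log2 scale, SE 0.07, adjusted p = 2.80e-09) and 4.87-fold in clone 2 (0.89, adjusted p = 1.89e-09), still under 2 TPM in every library. It passed the filter only through these clones, where it is high, so this OCI-AML2 call is a description.

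The alpha and beta genes can be set against each other, because TPM is scaled by length. The ratio of ITGAL to ITGB2 TPM was 0.0859, 0.0896 and 0.0900 in OCI-AML3 clone 1 and 0.102, 0.103 and 0.0916 in clone 2, against 0.0764, 0.0717 and 0.0760 in OCI-AML3 parental cells. In OCI-AML2 it was 3.74, 3.72 and 3.05 in clone 1 and 4.48, 4.22 and 4.73 in clone 2, against 2.71, 3.01 and 3.11 in parental cells. Thus ITGB2 exceeded ITGAL in every OCI-AML3 library and ITGAL exceeded ITGB2 in every OCI-AML2 library. The log2 ratio was higher by 0.24 and 0.40 in OCI-AML3 clones 1 and 2 and by 0.25 and 0.61 in OCI-AML2 clones 1 and 2. Exact two-sided permutation tests gave p = 0.1 in both OCI-AML3 clones and in OCI-AML2 clone 2, the smallest p that 3 against 3 libraries allow, and p = 0.2 in OCI-AML2 clone 1, which overlapped the parental range. ITGAX, another alpha chain that pairs with ITGB2 and a marker of monocytes and dendritic cells, had 2.39 to 2.92 TPM in OCI-AML3 clone 1 and 2.85 to 3.41 TPM in clone 2, against 7.81 to 9.60 TPM in parental cells. It fell in both (log2 change -1.45, adjusted p = 2.92e-11, and -1.28, adjusted p = 1.46e-10). In OCI-AML2 ITGAX had 24.29 to 26.19 TPM in clone 1 and 2.35 to 2.38 TPM in clone 2, against 26.51 to 28.68 TPM in parental cells. There it fell in clone 2 (-3.07, adjusted p = 2.16e-15) and did not pass in clone 1 (-0.10, adjusted p = 0.368). The direct difference, clone 2 minus clone 1, was -2.97 (adjusted p = 9.39e-14).

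**Figure D2:**
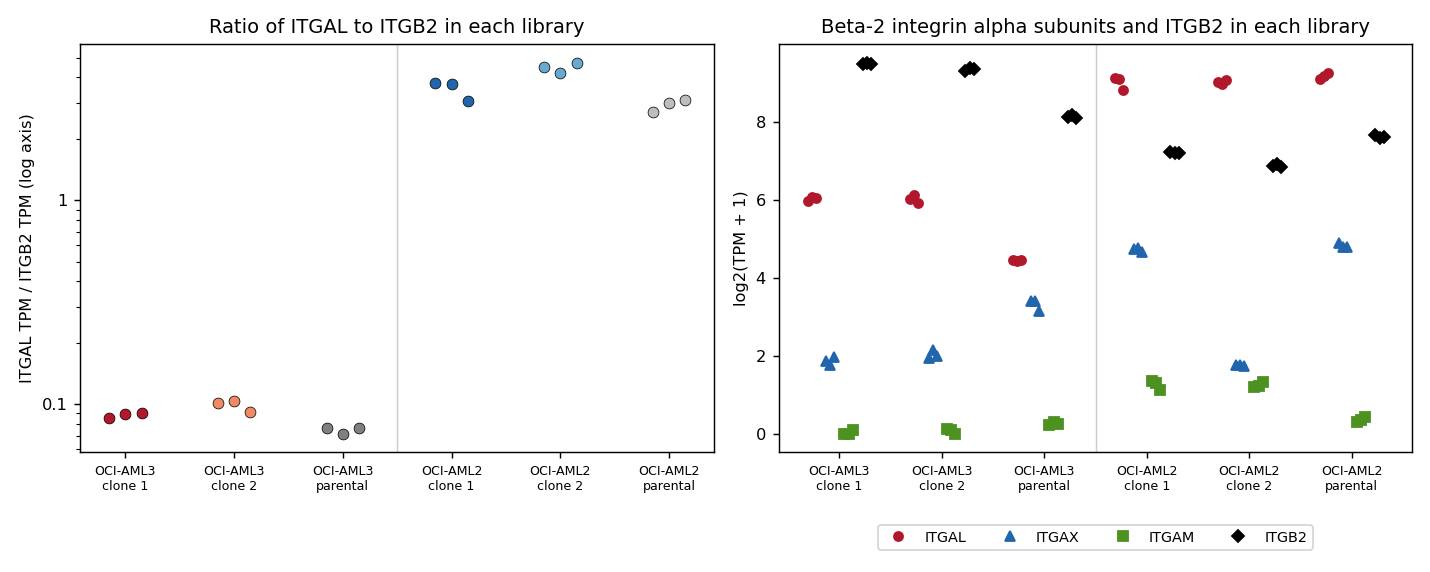
Left, the ratio of ITGAL to ITGB2 TPM in each library on a log axis, by group. Right, log2(TPM + 1) of the alpha chain genes ITGAL, ITGAX and ITGAM and of ITGB2, with 1 point per library. The ratio is under 1 in all 9 OCI-AML3 libraries (0.0717 to 0.103) and above 1 in all 9 OCI-AML2 libraries (2.71 to 4.73).

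SELPLG encodes the ligand through which leukocytes roll on P-selectin. It had 6.3, 6.04 and 5.43 TPM in OCI-AML3 clone 1 and 7.70, 7.85 and 8.80 TPM in clone 2, against 48.22, 39.07 and 37.55 TPM in OCI-AML3 parental cells. SELPLG fell to 14.2% of the parental mean in clone 1 (-2.62 on the log2 scale, SE 0.10, adjusted p = 8.88e-14), and clone 2 reached 19.5% (-2.22, adjusted p = 8.48e-13). SELPLG in OCI-AML2 had 154.15, 138.71 and 123.64 TPM in clone 1 and 76.05, 78.90 and 88.77 TPM in clone 2, against 162.58, 153.25 and 144.49 TPM in parental cells. Clone 1 overlapped the parental range (log2 change -0.15, 95% interval -0.36 to 0.06, adjusted p = 0.227), and clone 2 fell to 53.0% (-0.91, adjusted p = 2.41e-07). After rescaling by medians of ratios clone 1 passed as well (-0.27, adjusted p = 0.033).

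CXCR4 encodes the CXCL12 receptor that holds cells in the marrow. It had 140.04, 143.32 and 149.88 TPM in OCI-AML3 clone 1 and 139.67, 149.53 and 148.42 TPM in clone 2, against 50.53, 45.42 and 49.54 TPM in OCI-AML3 parental cells. CXCR4 rose 2.98-fold in clone 1 (1.56 on the log2 scale, SE 0.08, adjusted p = 1.14e-11) and 3.01-fold in clone 2 (1.57, adjusted p = 9.97e-12), without overlap with the parental libraries. OCI-AML2 cells had 289.99, 262.46 and 222.58 TPM in clone 1 and 273.66, 239.38 and 282.53 TPM in clone 2, against 279.58, 288.38 and 290.24 TPM in parental cells. Both clones overlapped the parental range there, with log2 changes of -0.15 (95% interval -0.33 to 0.02, adjusted p = 0.132) and -0.11 (-0.29 to 0.07, adjusted p = 0.261). Clone 1 passed as lower after rescaling (-0.27, adjusted p = 0.00404) and without clone 1 replicate 1 (-0.24, adjusted p = 0.0223; range over all settings 0.00404 to 0.619).

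CCR2 encodes the CCL2 receptor of inflammatory monocytes. It had 5.04, 4.14 and 4 TPM in OCI-AML3 clone 1 and 3.89, 3.75 and 3.41 TPM in clone 2, against 0.20, 0.21 and 0.21 TPM in OCI-AML3 parental cells. CCR2 rose 21.3-fold in clone 1 (2.16 on the log2 scale, SE 0.10, adjusted p = 2.30e-12) and 17.8-fold in clone 2 (1.96, adjusted p = 8.79e-12). These folds are ratios of mean TPM over a parental level far under 1 TPM, and the log2(TPM + 1) scale gives the smaller size. In OCI-AML2 it had 20.59, 20.58 and 18.70 TPM in clone 1 and 42.90, 30.56 and 34.53 TPM in clone 2, against 26.14, 28.99 and 29.45 TPM in parental cells. The OCI-AML2 clones passed in opposite directions, lower in clone 1 (-0.48, adjusted p = 0.000713) and higher in clone 2 (0.33, adjusted p = 0.00941). The clone 2 call ended without clone 2 replicate 1 (0.20, adjusted p = 0.0759; range over all settings 0.00135 to 0.0759).

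**Figure D3:**
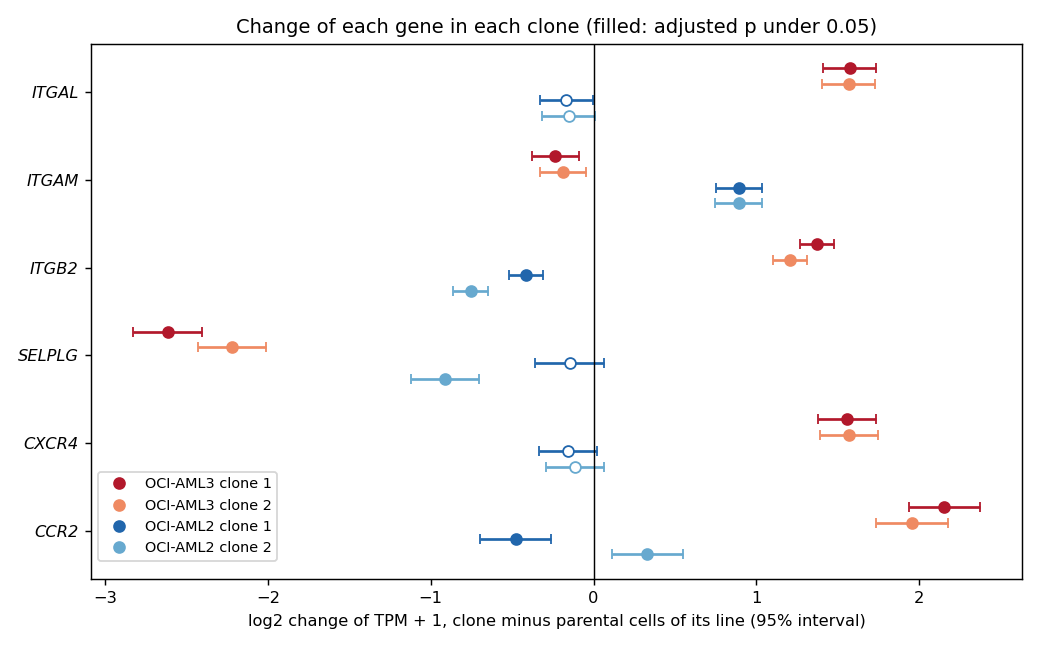
Log2 change of TPM + 1 on the horizontal axis for each of the 6 genes and each clone against the parental cells of its line, with 95% intervals from the limma fit. Filled points have an adjusted p under 0.05; the OCI-AML3 clones run from -2.62 for SELPLG to 2.16 for CCR2.

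Before any edit the lines already differed in 5 of the 6 genes, 1 higher and 4 lower in OCI-AML3, where 90.6% of all sets did, 47.2% higher and 43.4% lower. ITGAL averaged 20.9 ± 0.243 TPM in OCI-AML3 parental cells and 578 ± 29.4 TPM in OCI-AML2 parental cells (SD, n = 3 each), a log2 difference of -4.73 (adjusted p = 1.16e-19). CCR2 averaged 0.207 ± 0.00577 TPM in OCI-AML3 and 28.2 ± 1.79 TPM in OCI-AML2 parental cells (-4.59, adjusted p = 9.95e-18). CXCR4 averaged 48.5 ± 2.71 TPM in OCI-AML3 and 286 ± 5.69 TPM in OCI-AML2 parental cells (-2.54, adjusted p = 2.81e-15). SELPLG averaged 41.6 ± 5.77 TPM in OCI-AML3 and 153 ± 9.05 TPM in OCI-AML2 parental cells (-1.86, adjusted p = 3.02e-12). ITGB2 was the gene with the higher level in OCI-AML3, at 280 ± 6.89 TPM against 197 ± 5.82 TPM in OCI-AML2 parental cells (0.50, adjusted p = 2.28e-08). ITGAM averaged 0.200 ± 0.0361 TPM in OCI-AML3 and 0.283 ± 0.0513 TPM in OCI-AML2 parental cells and did not pass (-0.10, 95% interval -0.24 to 0.05, adjusted p = 0.183). The symbols of ITGB2 and ITGAM were accepted only because their absolute parental log2 ratio was under 0.6. A larger parental difference could therefore not appear for these genes.

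Ordered over the 6 groups, ITGAL, CXCR4, CCR2 and SELPLG were higher in each OCI-AML2 group than in any OCI-AML3 group, and no library crossed that line. How many of all sets separate the lines in this way was not counted. Of all sets 90.6% differed between the parental lines, so nothing particular to these genes is read from it. The rise in the OCI-AML3 clones left ITGAL at 64.1 and 63.9 TPM, against 517 and 520 TPM in OCI-AML2 clones 1 and 2, and CXCR4 at 144 and 146 TPM, against 258 and 265 TPM. ITGB2 had the reverse order, with every OCI-AML3 library above every OCI-AML2 library. All 6 of its groups were separate from their neighbours, from 724 ± 8.74 TPM in OCI-AML3 clone 1 down to 116 ± 2.67 TPM in OCI-AML2 clone 2. For ITGAL and CXCR4, clones of the same line could not be ordered, because their libraries overlapped.

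The change from parental cells to clones was set against the other line in 1 fit, as the OCI-AML3 change minus the OCI-AML2 change. All 6 genes differed by this test in each of the 4 pairings of clones, 4 positive and 2 negative, where 61.3% of all sets did, 24.2% positive and 37.1% negative. CCR2 had the largest difference of the 6, 2.13 between mean clone changes on the log2 scale (SE 0.13, adjusted p = 4.67e-11). ITGB2 differed by 1.87 (SE 0.06, adjusted p = 1.26e-14), with a rise in OCI-AML3 and a fall in OCI-AML2. ITGAL differed by 1.73 and CXCR4 by 1.70 (adjusted p = 1.32e-11 and 5.84e-11). SELPLG differed by -1.89 (SE 0.12, adjusted p = 1.30e-10). ITGAM differed by -1.10 (SE 0.08, adjusted p = 1.02e-09), the reverse of ITGB2, with a fall in OCI-AML3. The ITGAM difference is a description, because ITGAM was tested only through the OCI-AML2 clones. The comparisons share the parental libraries of each line between its 2 clones. The median difference of all sets was -0.23 as deposited and -0.06 after rescaling.

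Clones of a line were also compared directly. Between OCI-AML3 clone 2 and clone 1, 1 of the 6 genes differed, higher in clone 2, where 6.82% of all sets did, 3.94% higher and 2.88% lower. SELPLG was higher in OCI-AML3 clone 2 (8.12 ± 0.597 TPM) than in clone 1 (5.92 ± 0.447 TPM), by 0.40 on the log2 scale (adjusted p = 0.0247). That call ended without either of clone 1 replicates 2 and 3 or either of clone 2 replicates 2 and 3 (adjusted p = 0.055 to 0.0933). ITGB2 was at -0.16 (adjusted p = 0.0569) in the same comparison, and passed without OCI-AML2 clone 1 replicate 3 (adjusted p = 0.0462) or OCI-AML2 clone 2 replicate 1 (adjusted p = 0.049). Between OCI-AML2 clone 2 and clone 1, 3 of the 6 differed, 1 higher and 2 lower, where 58.9% of all sets did, 29.9% higher and 29.0% lower. CCR2 was higher in clone 2 by 0.81 (36.0 ± 6.3 against 20.0 ± 1.09 TPM, adjusted p = 2.86e-06). SELPLG was lower in clone 2 (-0.76, 81.2 ± 6.68 against 139 ± 15.3 TPM, adjusted p = 3.31e-06). ITGB2 was lower in clone 2 as well (-0.34, 116 ± 2.67 against 147 ± 1.67 TPM, adjusted p = 1.28e-05). ITGAL, ITGAM and CXCR4 gave differences of 0.02, -0.003 and 0.04 there, with 95% intervals within -0.15 and 0.22.

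Around these genes, 38 pathway genes with a settled symbol were tested, from 7 lists. Of these 38 genes, 35 passed in both OCI-AML3 clones in 1 direction and 24 in both OCI-AML2 clones, and each list's count below stands against the 67.1% and 38.4% of all sets that did so in OCI-AML3 and OCI-AML2. The table is a selected one, and nothing particular to a list is read from its count. CCL2, the ligand of CCR2, had 40.24, 50.22 and 58.75 TPM in OCI-AML3 clone 1 and 48.15, 49.67 and 55.48 TPM in clone 2, against 16.30, 10.51 and 12.38 TPM in parental cells (log2 change 1.86 and 1.91, highest adjusted p = 1.92e-09). In OCI-AML2 it had 20.41, 18.95 and 14.75 TPM in clone 1 and 137.15, 147.02 and 152.78 TPM in clone 2, against 0.48, 0.50 and 0.68 TPM in parental cells (3.61 and 6.56, highest adjusted p = 6.24e-13). So ligand and receptor genes rose together in OCI-AML3, whereas in OCI-AML2 CCL2 rose in both clones and CCR2 moved in opposite directions. CXCL12, the ligand of CXCR4, had 1.08, 1.5 and 1.37 TPM in OCI-AML3 clone 1 and 1.60, 1.73 and 1.66 TPM in clone 2, and was listed at 0 in OCI-AML3 parental cells and in every OCI-AML2 library. It reached 1 TPM only in the OCI-AML3 clones and was tested only through them, so its call there is a description. Of the 5 tested ligand genes of 22 listed, 2 rose and 2 fell in OCI-AML3, and 2 rose and 1 fell in OCI-AML2. ICAM2, an endothelial and leukocyte ligand of LFA-1, fell in OCI-AML3 (mean log2 change of both clones -2.38), whereas it rose in the other line (0.43). ICAM4, a red cell ligand of beta-2 integrins, fell in OCI-AML3 (-1.75). Complement C3, whose fragment binds Mac-1, fell in OCI-AML2 (-0.55).

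Among integrin subunits beside those 3, 6 of 23 listed were tested, and 2 rose and 4 fell in OCI-AML3 while 3 rose and 0 fell in OCI-AML2. ITGB5 (1.55) and ITGAE (0.65), the alpha chain of an epithelial homing receptor, rose in OCI-AML3, and ITGA2B, the platelet alpha chain (-1.48), ITGAX (-1.37) and ITGA7, a laminin receptor chain (-1.33), fell. ITGB7, a beta chain of gut homing integrins, rose in OCI-AML2 (2.26), to 6.78 to 11.08 TPM in the clones against 0.68 to 1.48 TPM in parental cells. ITGB5 (0.32) and ITGA2B (0.26) rose there too, at or under 1.03 TPM in every OCI-AML2 library. Of integrin activation and adaptor genes, 9 of 28 were tested, and 3 rose and 6 fell in OCI-AML3 while 3 rose and 2 fell in OCI-AML2. FYB1 (1.98), an adaptor of immune cells, APBB1IP (1.35), the Rap1 effector that brings talin to integrins, and CYTH1 (1.27), which binds the beta-2 tail, rose in OCI-AML3. FERMT2, a kindlin (-2.07), SKAP2, an adaptor of macrophage integrin signalling (-1.66), and the actin crosslinker FLNA (-1.49) fell there. FERMT2 reached 1 TPM only in OCI-AML3 parental cells, and ITGB5 only in the OCI-AML3 clones, so their OCI-AML3 calls are descriptions too. ITGA2B had at most 1.03 TPM outside OCI-AML3 parental cells, and ITGB7 at most 1.48 TPM outside the OCI-AML2 clones. Without those groups neither gene reached 1 TPM in 3 libraries. The ITGA2B call in OCI-AML3 and the ITGB7 call in OCI-AML2 are therefore descriptions as well. In OCI-AML2, FGR, a Src family kinase of myeloid cells (1.32), FLNA (0.68) and FYB1 (0.46) rose and the exchange factor VAV3 (-0.79) and APBB1IP (-0.42) fell.

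Enzymes that build selectin ligands had 3 of 17 listed genes tested. C1GALT1, which extends O-glycans to core 1, rose in OCI-AML3 (0.86) and in OCI-AML2 (1.20). GALNT3, which starts O-glycans, fell in OCI-AML3 (-0.68) but rose in the other line (1.03), and the sulphotransferase gene CHST2 fell in both lines (-0.35 and -0.80). In OCI-AML3 every library had GALNT3 under 1 TPM, with at most 0.25 TPM in clones against 0.74 to 0.83 TPM in parental cells. Of other chemokine and chemoattractant receptors, 5 of 27 were tested, and 3 rose and 1 fell in each line. ACKR3, the second receptor of CXCL12, rose in OCI-AML3 (0.58, with parental libraries listed at 0) but fell in the other line (-0.63). The formyl peptide receptor genes FPR1 and FPR2 rose in OCI-AML3 (0.79 and 0.58) and in OCI-AML2 (1.71 and 1.36), C3AR1 rose in OCI-AML2 (1.20), and CXCR2 fell in OCI-AML3 (-0.79). Outside the OCI-AML2 clones FPR1 had at most 1.73 TPM and FPR2 at most 1.33 TPM. Neither reached 1 TPM in 3 libraries there, so their OCI-AML2 calls are descriptions. ACKR3 (at most 0.86 TPM) and FPR2 (at most 0.77 TPM) stayed under 1 TPM in every OCI-AML3 library.

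Other leukocyte adhesion molecules had 5 of 22 tested, with 1 higher and 3 lower in OCI-AML3 and 1 higher and 2 lower in OCI-AML2. ALCAM (-2.66) and the sialomucin gene PODXL (-2.47) fell in OCI-AML3, as did JAM2 (-0.30), and PVR rose (0.57). JAM2 was under 1 TPM in every OCI-AML3 library, with at most 0.14 TPM in clones against 0.13 to 0.39 TPM in parental cells. CEACAM6 rose in OCI-AML2 (6.05), while JAM2 (-1.15) and PVR (-0.83) fell. Of regulators of chemokine receptor signalling, 5 of 23 were tested, with 2 higher and 3 lower in OCI-AML3 and 1 higher and 2 lower in OCI-AML2. RGS16, which shortens G protein signals, rose in OCI-AML3 (1.23) but fell in the other line (-1.27), and RGS18 did the reverse (-1.19 and 0.51). RGS3 rose (0.51) and RGS19 fell (-1.34) in OCI-AML3, and the exchange factor gene DOCK8 fell in OCI-AML3 (-1.15) and in OCI-AML2 (-0.62). After rescaling, ITGB7 and CHST2 were no longer called in OCI-AML3 and C3AR1 was added, while in OCI-AML2 ITGA2B and FLNA were no longer called and ITGAX and TLN2 were added. None of the called genes of these lists changed sign.

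**Figure D4:**
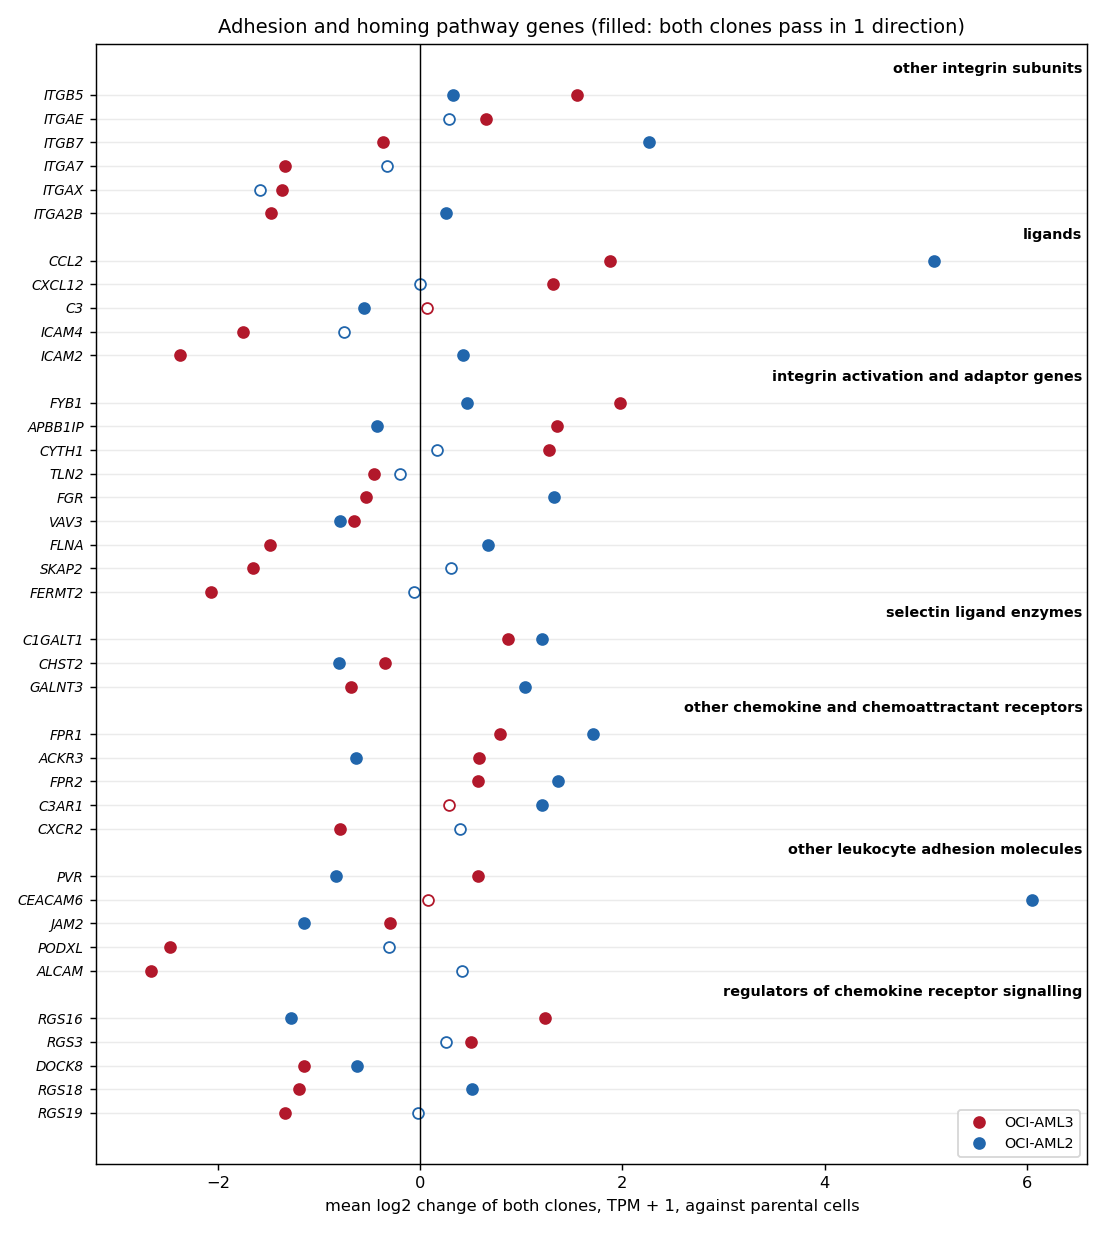
Mean log2 change of TPM + 1 over both clones on the horizontal axis for 38 tested genes of 7 lists, in OCI-AML3 and in OCI-AML2. Filled points passed in both clones in 1 direction; ALCAM in OCI-AML3 (-2.66) and CEACAM6 in OCI-AML2 (6.05) stand at the ends.

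Genes with the most similar pattern were found by Pearson's r of log2(TPM + 1) over the 18 libraries, among 2080 other tested genes with a settled symbol. The libraries share lines and clones, so high values of r largely follow the differences between groups, and they are given as a description. ITGAL was most like APOC2 (r = 0.996), CDA (0.996) and TSHZ3 (0.994). ITGAM was most like GPR141 (0.986), SLC26A9 (0.983) and CEACAM6 (0.982). ITGB2 was most like SERPINA1 (0.991), UBL4B (0.991) and GDF15 (0.989). SELPLG was most like the entry 105373132 (0.993), FHL1 (0.992) and FYN (0.992), CXCR4 like DEF6 (0.987), ACSS1 (0.987) and FRY (0.986), and CCR2 like FEZ1 (0.992), XYLT1 (0.984) and CYTH4 (0.984). Among the 6 genes themselves ITGAL, CXCR4 and CCR2 went together (r = 0.936 to 0.982), and ITGB2 ran against SELPLG (-0.93), ITGAM (-0.872) and ITGAL (-0.713). These r span both lines. Within a line, ITGAL and ITGB2 had mean clone changes of the same sign, 1.57 and 1.29 in OCI-AML3 and -0.161 and -0.585 in OCI-AML2. For ITGAL neither OCI-AML2 clone passed. SELPLG moved against ITGB2 in OCI-AML3 (-2.42) but with it in OCI-AML2 (-0.529).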

How the data were processed

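RNA of 18 libraries was sequenced. The deposited table lists TPM for each gene in every library, per the file headers; how reads were aligned and counted, and on which build and annotation, is not given in the sources used here. RNA came from an RNeasy kit, per the labels' protocols. All value columns matched a sample (0 without one). Its 6999 lines reduce to 5069 distinct sets, of which 1732 occur more than once. Some repeats hold the OCI-AML3 clone 1 libraries in another order, so which of these is which is uncertain, and the group values do not depend on it.

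A symbol was settled for 413 sets repeated under it, for 1234 through the replicate order (the line reading a, b, c whose twin reads b, c, a) and for 662 single lines with an absolute parental log2 ratio under 0.6. Sets without a symbol entered the fit unnamed. TPM of distinct sets sums to 170141 to 199403 per library.

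log2(TPM + 1) was fitted with limma 3.58.1 (R 4.3.3), with 1 mean per group over 18 libraries and an intensity trend, for sets reaching 1 TPM in 3 or more libraries. P-values are two-sided and adjusted by Benjamini-Hochberg over all sets tested per comparison, with a threshold of 0.05. A gene changed in a line where both clones passed in 1 direction, and changed differently between lines where all 4 pairwise clone differences did. The script was tested on simulated data. Ratios of ITGAL to ITGB2 were tested by exact permutation (scipy 1.17.1).

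Alternatives were a pseudocount of 0.1, no filter, at least 5 TPM, rescaling by medians of ratios, a replicate block, no trend, repeats kept, 1 line alone and each library left out. Named genes are the 6 genes, CASP2, CCL2, CXCL12, up to 3 called genes per list, line and direction by size, and the 3 most correlated genes. The genes and lists were chosen with earlier results of these data known. A further marker gene is not reported here.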

Additional observations from a re-analysis of the deposited data

Results flagged for a closer look

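The change from parental cells to clones differed between the lines for all 6 genes by the test of the difference itself, given as the mean clone change in OCI-AML3 minus that in OCI-AML2 on the log2(TPM + 1) scale. Of all sets tested, 61.3% differed by the same test, and ITGAM was tested only through the OCI-AML2 clones, where it is high. The difference was 1.73 for ITGAL, 1.87 for ITGB2, 1.70 for CXCR4 and 2.13 for CCR2, each higher for OCI-AML3. It was -1.89 for SELPLG and -1.10 for ITGAM, each lower for OCI-AML3. For ITGB2 and ITGAM every clone library of one line lay above its parental libraries and every clone library of the other line below them, in opposite directions for the 2 genes. How many of all sets do the same was not counted. For ITGAM in OCI-AML3 the levels were near 0, at 0 to 0.09 TPM in clones against 0.17 to 0.24 TPM in parental cells. The ITGAM call in OCI-AML3 clone 2 ended without OCI-AML3 parental replicate 2 or clone 2 replicate 3.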

How the results depend on the processing

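The count of 6 genes changed in OCI-AML3 ran from 5 to 6 over all settings, that of 6 differing between lines from 5 to 6, that of 5 differing between parental lines was 5 throughout, and that of 3 differing between OCI-AML2 clones was 3 throughout. The count of 2 genes changed in OCI-AML2 was 1 with at least 5 TPM, where ITGAM is not tested, and 4 after rescaling by medians of ratios, where ITGAL and SELPLG were added as lower. The count of 1 gene differing between OCI-AML3 clones ran from 0 to 2 when single libraries were left out. With the replicate block the counts were 6, 2, 6, 5, 1 and 3, as without it. Libraries with the same replicate number did not deviate together (r = -0.343 to 0.177 with a median of -0.0295 over 45 pairs, against -0.258 to 0.312 with a median of 0.00782 over 90 pairs of other numbers), so the numbers were not taken to pair the libraries. The order of the OCI-AML3 clone 1 libraries, which enters this check, is uncertain. Sign changes were confined, among the settings run, to small uncalled differences between clone 2 and clone 1. In OCI-AML3, ITGAL gave 0.016 after rescaling and -0.054 to 0.044 with libraries left out, and CXCR4 -0.007 to 0.045. In OCI-AML2, ITGAM gave 0.05 after rescaling and -0.071 to 0.045 with libraries left out, ITGAL -0.086 to 0.074 and CXCR4 -0.06 to 0.13. Read depth is unknown, so no counting error can be given for ITGAM, under 2 TPM throughout, or for CCR2 in OCI-AML3 parental cells. The causes were not tested.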
